A study of Homo sapiens with 6 samples.

Results

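Autophagy and the lysosome were followed through 45 genes, taken by symbol from the 23180 gene symbols of the RNA-Seq count table and grouped into 9 steps, from the kinase complex that starts an autophagosome to the enzymes of the lysosome. Where a symbol had several RefSeq transcripts, the one with most counts over all 6 samples was used. The study knocked down KMT9α, the catalytic subunit of a histone methyltransferase that is encoded by N6AMT1, in A549 cells, an established line from a human lung adenocarcinoma. The comparison was between 3 samples transfected with a control siRNA (siControl) and 3 samples transfected with an siRNA against KMT9α (siKMT9α), labelled as biological replicates, of unmodified genotype and all at passage 11. According to the methods, both siRNAs were used at 65 nM, the siRNA against KMT9α was siKMT9α#1, and RNA was taken after 3 days. Both groups are thus the same line after a transient transfection, and a single siRNA against KMT9α stands for the knock-down.

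Macroautophagy wraps part of the cytoplasm in a double membrane, the autophagosome, which fuses with the lysosome so that its content is broken down. The ULK1 kinase complex starts the process, a class III phosphatidylinositol 3-kinase marks the membrane, a pair of ubiquitin-like conjugation reactions attaches proteins of the ATG8 family to it, and cargo receptors tie ubiquitinated proteins, organelles and microbes to the ATG8 proteins. The transcription factors TFEB, TFE3 and MITF switch on many lysosome and autophagy genes through an E-box in their promoters, while the protease and glycosidase content of the lysosome sets how fast the cargo is degraded.

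Most of the autophagy and lysosome transcripts of this list were lower after knock-down of KMT9α. Of the 45 genes, 44 had enough counts to be tested with edgeR's quasi-likelihood test, and 29 fell, 7 rose and 8 were not called at an adjusted p under 0.05 (Benjamini-Hochberg adjustment over all 13877 genes tested). The exception was GBA3, which had 0.5 counts in all 6 samples together and which encodes a cytosolic enzyme. Calls were common in this comparison, since 75.6% of all genes tested were called, 38.5% lower and 37.1% higher. Against these shares stood 65.9% of the autophagy and lysosome genes tested called lower and 15.9% called higher. The list was chosen with earlier results of these data known. Of 120 further genes tested from the same pathways, 43.3% were called lower and 35% higher, near the shares over all genes. Scaling by library size alone, in place of edgeR's TMM factors, gave 36 lower and 3 higher, and it also moved the median log2 fold change of all genes from -0.01 to -0.12. Of the 8 genes not called, 7 were called lower with it, namely TFEB (-0.42, adjusted p = 0.0242), PIK3C3 (adjusted p = 0.0286), BECN1 (adjusted p = 0.0111), PSAP (adjusted p = 0.0191), MITF (adjusted p = 0.0168), LAMP1 (adjusted p = 0.0324) and GABARAPL2 (adjusted p = 0.0382). It made 10 of the small decreases more than 1.5 times larger, to between -0.31 and -0.24 (WIPI1, ATG2B, ATG9A, ATG3, GABARAP, GABARAPL1, LAMP2, CTSD, NEU1 and GRN). The median log2 fold change over the 44 genes was -0.20, with the largest decrease in MAP1LC3B (-3.03) and the largest increase in ULK1 (0.87). At the stricter threshold of the study's methods (p below 1e-08 and a log2 fold change larger than 0.26 in size), 8 of the 44 were lower and 1 was higher, where 10.7% and 13.5% of all genes tested, 24.2% together, passed it. The threshold was applied to the p-values of the test used here, so these calls are not the study's own. Samples of both groups did not overlap in 35 of the 44 genes, which is close to the 77.0% found over all genes tested.

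**Figure D1:**
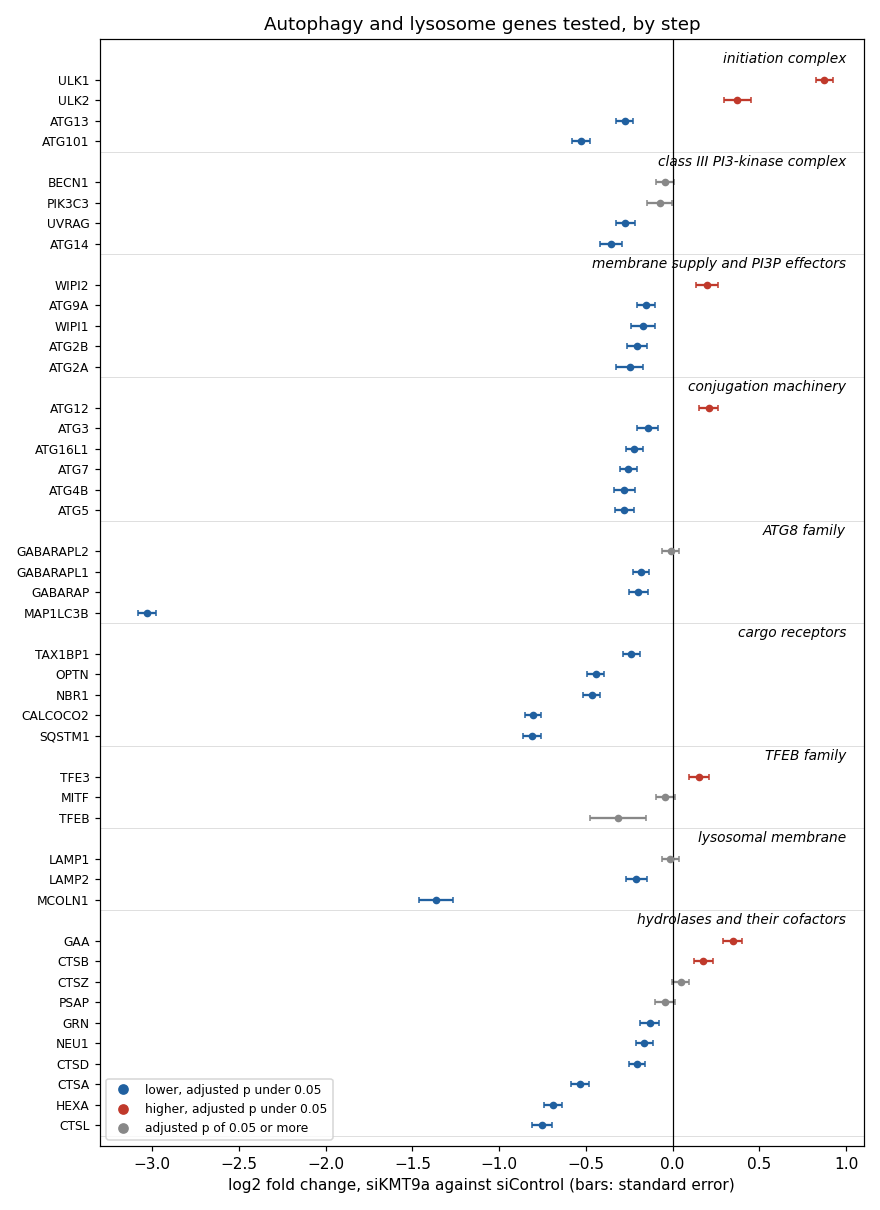
Log2 fold change of siKMT9α against siControl for the 44 genes tested, by step, with the standard error (SE) as a bar and n = 3 samples per group. MAP1LC3B stands at -3.03 and MCOLN1 at -1.36, the cargo receptors lie between -0.81 and -0.24, and ULK1 is highest at 0.87.

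KMT9α mRNA itself, listed as N6AMT1, was at 10.2, 10.9 and 11.4 CPM (counts scaled to a common library total by the TMM factors) in the siControl samples, and the siKMT9α samples had 2.87, 3.22 and 3.35 CPM. The log2 difference was -1.77 (SE, the standard error, 0.12, adjusted p = 1.42e-10), so the labels and the targeted mRNA go together. Over 1 transcript per gene the libraries held between 13740098 and 19832394.5 counts, which puts a transcript at 1 CPM at more than 10 counts. Both keratins of simple epithelia were among the abundant transcripts, with KRT8 at 1213 to 1346 CPM and KRT18 at 1942 to 2163 CPM in siControl. EPCAM and CDH1 of the same marker list were low, with siControl means of 3.85 and 3.38 CPM, near COL1A1 of the fibroblast list (4.28). The sum of the epithelial and A549 markers thus rests on the keratins, AKR1B10 and AKR1C1. All 6 epithelial and A549 markers were tested, 5 fell and CDH1 rose, and their summed level was 4871 to 5203 CPM in siControl and 2315 to 2373 CPM in siKMT9α. Markers of fibroblasts summed to at most 4.94 CPM, of leukocytes to at most 3.77 CPM and of endothelial cells to at most 1.05 CPM in any sample. COL1A1 and CD14, the only ones of these 14 markers with enough counts to be tested, were lower with siKMT9α, and COL1A2 and CD3E were at 0 throughout. In bulk RNA a change in the composition of the culture and a change of RNA per cell cannot be told apart, and the part of the marker shifts in the results was not tested. Nothing states that the replicates came from separate cultures beyond their label, so the p-values measure the spread between these samples.

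MAP1LC3B, which encodes the LC3 protein whose lipidated form coats autophagosomes and is the usual marker of autophagy, showed the largest change of the 44. MAP1LC3B was at 469, 509 and 484 CPM in siControl replicates 1, 2 and 3 and at 61.2, 57.7 and 59.9 CPM in the siKMT9α replicates. The lowest siControl sample was thus far above the highest siKMT9α sample, and the replicates of each group lay close together. The mean went from 488 ± 20.4 to 59.6 ± 1.76 CPM (± SD, n = 3 each), an 8.18-fold decrease with a log2 fold change of -3.03 (SE 0.05, adjusted p = 1.53e-18, edgeR quasi-likelihood test). By p it ranked 2 of all 13877 genes, and among the 9485 genes with a mean of at least 10 CPM it had the 8th lowest log2 fold change. In hg19 the gene lies on the plus strand at chr16:87425801-87438380.

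The other ATG8 genes of the list encode GABARAP, GABARAPL1 and GABARAPL2, the subfamily that acts in later steps of autophagosome maturation and in vesicle transport. GABARAP had 321 ± 11.6 CPM with siControl and 281 ± 19.1 with siKMT9α (± SD, n = 3 each), or a log2 fold change of -0.20, and GABARAPL1 had a log2 fold change of -0.18. Both fell, GABARAP without passing the test (adjusted p = 0.0681) when offsets for GC content and length were fitted. GABARAPL2 was not called, at 83.2 ± 2.11 and 82.6 ± 1.67 CPM, but it was called higher with these offsets (0.12, adjusted p = 0.0185) and lower with library size alone. Set per length of transcript, the 4 genes together had 744.9 to 794.9 CPM per kb in siControl and 496 to 534 CPM per kb in siKMT9α. MAP1LC3B supplied 27.6%, 28.1% and 27.7% of this ATG8 level in the siControl samples and 5.03%, 4.74% and 5.29% in the siKMT9α samples, while the share of GABARAP was 46.8% to 47.5% and 58.9% to 62.4%. Both the summed ATG8 level and its composition differed between the groups, with no overlap between groups in either.

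**Figure D2:**
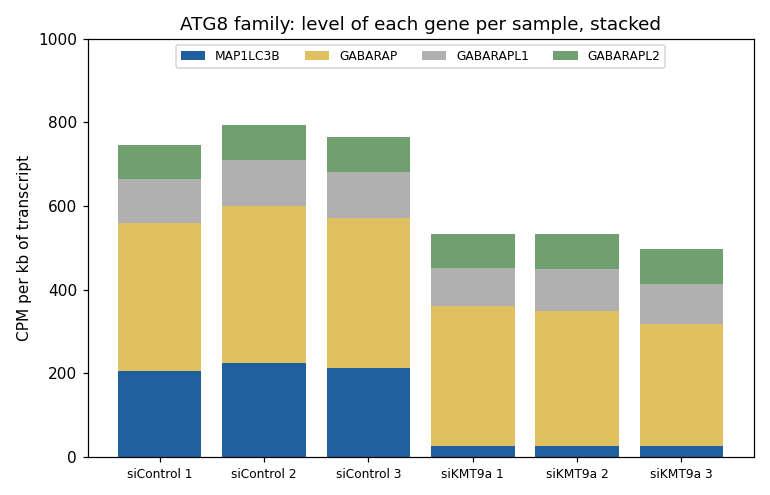
Level of the 4 ATG8 genes of the list in each sample, in CPM per kb of transcript, stacked. The blue MAP1LC3B segment makes up 27.6% to 28.1% of the column in the siControl samples and 4.74% to 5.29% in the siKMT9α samples.

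Other LC3 genes moved in the same direction. MAP1LC3A, from the list of further autophagosome genes, had 363, 387.5 and 403.5 counts in the siControl samples, and the siKMT9α samples had 127.5, 129 and 182, a log2 fold change of -1.16 (adjusted p = 1.68e-09, edgeR quasi-likelihood test). MAP1LC3B2, a near-identical copy of MAP1LC3B, had 1553.5 to 1674 counts in siControl and 166 to 252 in siKMT9α. How reads shared by the copies were assigned is not stated, so the level of either is uncertain, and the log2 fold change of MAP1LC3B2 was -2.81. MAP1LC3C, chosen after its values were seen, had 22 to 27 counts in siControl and 0.5 to 2 in siKMT9α.

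MAP1LC3B is also one of the genes whose 3′ UTR holds the 7-mer complementary to bases 2 to 8 of the guide strand of siKMT9α#1, ACATTCA. The windows around the sites are shown because the seed of an siRNA can silence other mRNAs through them. They come from GRCh37 with GENCODE transcripts, the first at chr16:87436876-87436904 and the second at chr16:87437566-87437594, both on the plus strand and in the 3′ UTR of MAP1LC3B-201, and the third at chrX:119572698-119572726 and the fourth at chrX:119570726-119570754, on the minus strand and in the 3′ UTR of LAMP2-202. Capitals mark the 7-mer.
MAP1LC3B site 1: tccaagtgagcACATTCAgctttggaaac
MAP1LC3B site 2: tgaaaacattaACATTCAgacacactccc
LAMP2 site 1: tttcattttagACATTCAgactaaaaata
LAMP2 site 2: taaaagtttctACATTCAgattatatgcc
Of the 44 genes tested, 4 (9.09%) hold the 7-mer, MAP1LC3B and LAMP2 with 2 sites each and ULK2 and ATG12 with 1 each, against 11.6% of all genes tested that have an annotated 3′ UTR. Over all genes the median log2 fold change was -0.20 in the 1421 genes with a site, -0.48 in the 218 genes with 2 or more and 0.01 in those without. The median length of the 3′ UTR also differed, at 2870, 4195 and 941 bases in that order. These medians therefore cannot tell the sites apart from the length. Among the 4 genes here the log2 fold change was -3.03 for MAP1LC3B, -0.21 for LAMP2, 0.21 for ATG12 and 0.37 for ULK2. With offsets for GC content and length ULK2 was at -0.04. In the 40 genes of the list without a site the median was -0.20. Of the genes of other lists named below, ASAH1 (-2.32), CLN3 (-1.13), TMEM41B (-1.08), SEC62 (-0.92) and RRAGD (-0.68) hold the 7-mer and fell. FNIP2 (0.88), ATP6V0A2 (0.53) and CTSK (1.47) hold it and rose. The part of the seed in the change of any of these genes, MAP1LC3B included, was not tested.

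The cargo receptors, which bind ubiquitinated cargo with one end and ATG8 proteins with the other, were lower throughout. All 5 fell, with a median log2 fold change of -0.47, and their groups did not overlap. Of all genes tested, 38.5% were called lower and 77.0% had groups without overlap. The median size of the log2 fold change over all genes tested was also 0.47. SQSTM1 was at 5884, 6218 and 6359 CPM in siControl replicates 1, 2 and 3 and at 3629.7, 3522 and 3378 CPM in the siKMT9α replicates. All siControl samples of SQSTM1, which encodes the p62 receptor and NRF2 regulator, lay above all siKMT9α samples. SQSTM1 was the second most abundant gene tested in siControl by CPM, and it fell from a mean of 6153 ± 244 to one of 3509.8 ± 126 CPM (± SD, n = 3 each), or a log2 fold change of -0.81 (SE 0.05, adjusted p = 5.25e-11, edgeR quasi-likelihood test). Its span overlaps C5orf45, which had 20208.5 counts over the 6 samples. CALCOCO2 was at 231, 223 and 224 CPM in siControl replicates 1, 2 and 3 and at 130.4, 128 and 129.8 CPM in the siKMT9α replicates. CALCOCO2, the NDP52 receptor for bacteria and mitochondria, did not overlap between groups either, with a log2 fold change of -0.80 (SE 0.05, adjusted p = 5.97e-12). NBR1, a receptor that works beside p62, went from 220.2 ± 9.16 to 159 ± 5.45 CPM, a log2 fold change of -0.47. OPTN, the optineurin receptor of mitophagy, had -0.44, and TAX1BP1, the closest relative of CALCOCO2 in the list, had -0.24.

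At the start of the pathway the kinase ULK1 rose and its partner subunits ATG101 and ATG13 fell. ULK1 was at 67.8, 70.5 and 68.0 CPM in siControl replicates 1, 2 and 3 and at 128, 127 and 123 CPM in the siKMT9α replicates. ULK1, the kinase that starts autophagosome formation, was higher in every siKMT9α sample. It is the one gene of the list that rose past the study's threshold in the test used here. It rose 1.83-fold, a log2 fold change of 0.87 (SE 0.05, adjusted p = 3.76e-12, edgeR quasi-likelihood test). ULK2 was at 15.9, 15.3 and 17.1 CPM in siControl replicates 1, 2 and 3 and at 20.3, 21.7 and 20.6 CPM in the siKMT9α replicates. Its paralog ULK2 did not overlap between groups either and had a log2 fold change of 0.37 (SE 0.08, adjusted p = 0.000258), which reversed to -0.04 with offsets for GC content and length. The partner subunits fell, ATG101 from 224 ± 9.72 to 155 ± 7.24 CPM (log2 fold change -0.53) and ATG13 from 151 ± 3.48 to 124 ± 3.25 CPM (-0.28). With the offsets their order turned, to -0.54 for ATG13 and -0.31 for ATG101.

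**Figure D3:**
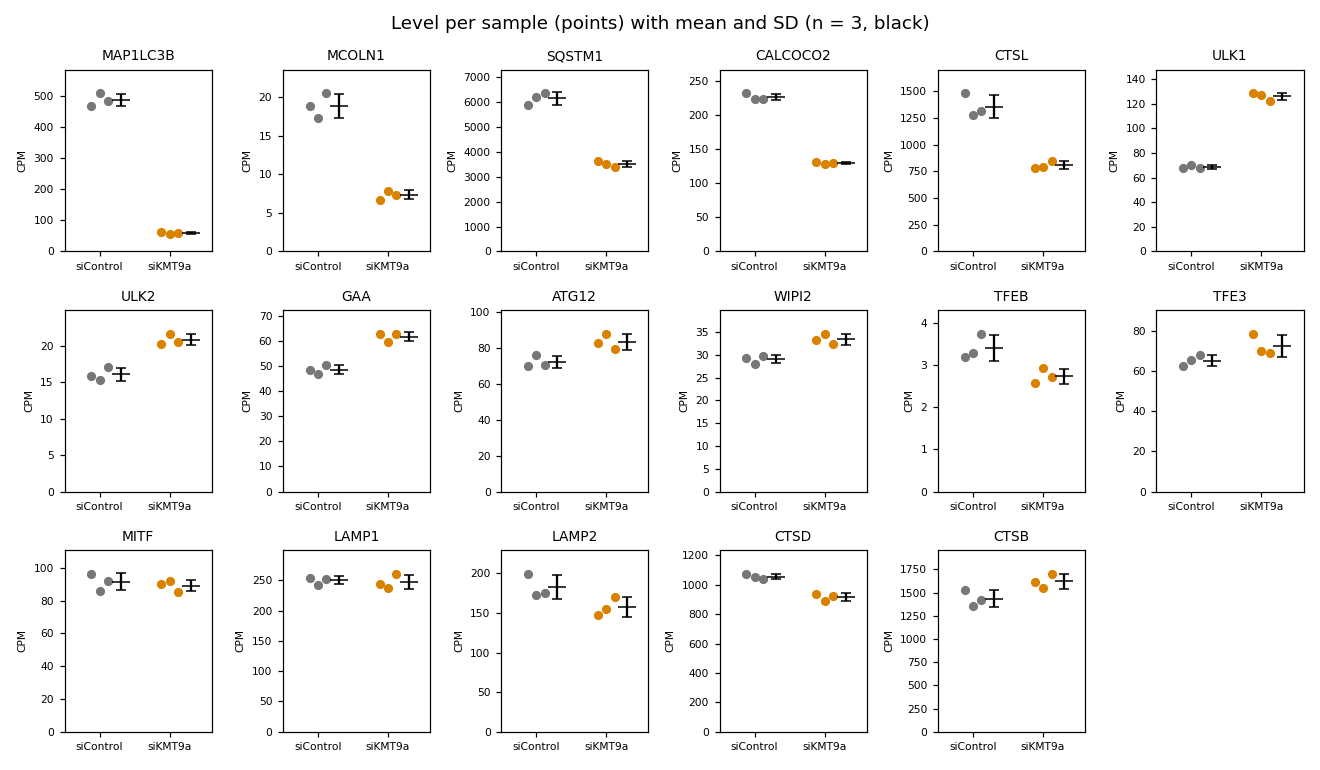
CPM in each of the 6 samples for 17 genes, with the mean and SD (n = 3) of each group in black and every axis starting at 0. MAP1LC3B, MCOLN1, SQSTM1, CALCOCO2 and CTSL are lower in all siKMT9α samples, ULK1 is higher in all of them, and the points of MITF and LAMP1 overlap.

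In the class III phosphatidylinositol 3-kinase complex, which makes the lipid that recruits later factors, the median log2 fold change was -0.17. The catalytic subunit PIK3C3 and the scaffold BECN1 were not called, with log2 fold changes of -0.08 and -0.04. The subunits that give the complex its place fell. ATG14, which directs it to the site of autophagosome formation, had -0.35, and UVRAG, which directs it to endosomes, had -0.27. Offsets for GC content and length made both decreases larger, to -0.56 and -0.52. The span of BECN1 overlaps that of CNTD1, which had 3554.5 counts over the 6 samples, and without knowledge of strand their reads cannot be told apart.

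Of the 5 genes that supply membrane or read the lipid, 4 fell and 1 rose, with a median of -0.17. The shares over all genes tested were 38.5% lower and 37.1% higher. WIPI2 was at 29.3, 28.0 and 29.6 CPM in siControl replicates 1, 2 and 3 and at 33.2, 34.6 and 32.3 CPM in the siKMT9α replicates. WIPI2, the lipid reader that recruits the conjugation machinery, did not overlap between groups, and its log2 fold change was 0.20 (SE 0.06, adjusted p = 0.00806, edgeR quasi-likelihood test). This call was lost with library size alone (adjusted p = 0.182) and with offsets for GC content and length (adjusted p = 0.562). ATG2A (-0.25) and ATG2B (-0.21), the lipid transfer proteins, and ATG9A (-0.16), the scramblase of the seed vesicles, fell, as did WIPI1 (-0.17). With the same offsets the decrease was larger in ATG2B (-0.61) and ATG2A (-0.41). WIPI1 lost its call with DESeq2 (adjusted p = 0.102), with GC and length offsets (adjusted p = 0.0771) and when any 1 sample but siKMT9α replicate 1 was left out, down to -0.14 without siKMT9α replicate 3. ATG9A lost it without siControl replicate 1 (-0.11) or 3 (-0.13) and without siKMT9α replicate 1 (-0.14) or 2 (-0.14).

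The conjugation machinery was lower in 5 of 6 genes, with a median of -0.24, where 38.5% of all genes tested were called lower. ATG5 (-0.28), ATG7 (-0.26), ATG4B (-0.28) and ATG16L1 (-0.22) fell, and their groups did not overlap, as in 77.0% of all genes tested. With GC and length offsets ATG7 was at -0.49. ATG7 is the E1-like enzyme of both conjugation reactions, ATG4B the protease that primes ATG8 proteins, and ATG5 and ATG16L1 form the ligase with ATG12. The span of ATG7 overlaps that of VGLL4, which had 10519.5 counts over the 6 samples. ATG3, the E2-like enzyme for ATG8 proteins, fell by 0.14 on the log2 scale, with overlapping groups and without a call under DESeq2 (adjusted p = 0.109), RLE factors (adjusted p = 0.0576) or GC and length offsets (adjusted p = 0.402). Its call was also lost without siControl replicate 1 (-0.11) or 2 (-0.12) and without siKMT9α replicate 1 (-0.15) or 3 (-0.08). ATG12 was at 69.8, 76.3 and 70.4 CPM in siControl replicates 1, 2 and 3 and at 82.5, 88.0 and 79.6 CPM in the siKMT9α replicates. ATG12, the ubiquitin-like partner of ATG5, rose in contrast to the other 5, with no overlap between groups. Its log2 fold change was 0.21 (SE 0.05, adjusted p = 0.00224, edgeR quasi-likelihood test), and with library size alone the adjusted p was 0.105. The transcript used for ATG12 is listed with a non-coding accession, NR_033363, and the coding transcript NM_004707 gave 0.21 as well.

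Of the transcription factors of the TFEB family 1 was called, where 75.6% of all genes tested were called. Their median log2 fold change was -0.04. TFEB was at 3.19, 3.27 and 3.74 CPM in siControl replicates 1, 2 and 3 and at 2.57, 2.92 and 2.72 CPM in the siKMT9α replicates. TFEB was the least abundant of the 44 genes by CPM, and although its groups did not overlap, its log2 fold change of -0.32 (SE 0.16) had an adjusted p of 0.0837 in edgeR's test. With library size alone it was called lower, as given above. TFE3 was at 62.3, 65.5 and 68.0 CPM in siControl replicates 1, 2 and 3 and at 78.8, 70.2 and 68.8 CPM in the siKMT9α replicates. The lowest siKMT9α sample of TFE3 was just above the highest siControl sample, and the log2 fold change was 0.15 (SE 0.06, adjusted p = 0.0271). The call of TFE3 was lost without siKMT9α replicate 1 (log2 fold change 0.09), without siControl replicate 1 (0.13) and with library size alone (0.04). MITF was at 96.5, 86.1 and 91.9 CPM in siControl replicates 1, 2 and 3 and at 89.9, 91.9 and 85.4 CPM in the siKMT9α replicates. MITF overlapped between groups and was not called (log2 fold change -0.04, SE 0.05), but with GC and length offsets it was -0.21 and called.

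The E-box that these factors bind, CACGTG, reads the same on both strands and was searched in RefSeq promoters of GRCh38.p14, from 250 bases before to 50 bases after the gene start. Promoters were found for 39 of the 45 genes, and 8 of the 39 (20.5%) held the E-box, against 8.77% of all symbols with a promoter. The longer form TCACGTGA, which contains the E-box, was in 5 of the 39 (12.8%), against 1.18% of all symbols. All symbols include genes with too few counts to be tested, and both forms were more common among genes tested. Of these, 1298 held the E-box and 9016 did not, and 229 held the longer form and 10085 did not. ATG14, CTSD and NEU1 held the E-box alone, and ATG3, CTSA, GAA, LAMP1 and MCOLN1 held the longer form. No entry was used for GBA3, PSAP, CTSB, LAMP2, HEXA and UVRAG. The sites of a gene that fell, one that rose and one that was not called are shown to set them side by side. They lie at chr19:7522571-7522600 and chr19:7522598-7522627 for MCOLN1, at chr17:80101493-80101522 and chr17:80101538-80101567 for GAA and at chr13:113297199-113297228 for LAMP1, all on the plus strand, and capitals mark the E-box.
MCOLN1 site 1: accagaggcggtCACGTGaggggctctggg
MCOLN1 site 2: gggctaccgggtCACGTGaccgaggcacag
GAA site 1: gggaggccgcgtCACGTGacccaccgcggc
GAA site 2: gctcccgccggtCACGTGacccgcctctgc
LAMP1 site: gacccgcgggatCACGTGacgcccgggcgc
Each of these windows holds the 8-letter form, and each gene has at least 2 E-boxes in its promoter. Their log2 fold changes were -1.36 for MCOLN1, 0.34 for GAA and -0.01 for LAMP1. Over the genes of the list the median was -0.18 for the 8 with an E-box and -0.21 for the 31 with a promoter entry without one, and over all genes tested it was -0.03 and -0.01. The letters describe these windows and do not show binding.

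The lysosomal membrane held the second largest change of the list. MCOLN1 was at 18.8, 17.3 and 20.5 CPM in siControl replicates 1, 2 and 3 and at 6.73, 7.89 and 7.38 CPM in the siKMT9α replicates. MCOLN1, the TRPML1 channel that releases calcium from the lysosome, was thus lower in every siKMT9α sample. It fell 2.57-fold, a log2 fold change of -1.36 (SE 0.10, adjusted p = 2.81e-10, edgeR quasi-likelihood test). LAMP1 was at 254, 242 and 252 CPM in siControl replicates 1, 2 and 3 and at 244, 237 and 261 CPM in the siKMT9α replicates. LAMP1, the most used lysosome marker, overlapped between groups, with a log2 fold change of -0.01 (SE 0.05, adjusted p = 0.812).

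LAMP2 was at 199.7, 173 and 175 CPM in siControl replicates 1, 2 and 3 and at 147, 155 and 171 CPM in the siKMT9α replicates. For LAMP2, which is needed for the fusion of autophagosomes and lysosomes, these values are those of the transcript with the largest count, and its highest siKMT9α sample lay just under its lowest siControl sample. The log2 fold change of this transcript was -0.21 (SE 0.06, adjusted p = 0.00511), and without siControl replicate 1 it was -0.12 and not called (adjusted p = 0.0595). The result depends on the transcript, which was so for few other genes: of 21 genes with more than 1 transcript tested, 19 had log2 fold changes within 0.1 of each other, and the exceptions were LAMP2 and ULK2. The transcript above, NM_013995, is LAMP2B. LAMP2A (NM_002294), the receptor of chaperone-mediated autophagy, had 139.2, 126.2 and 124.1 CPM in the siControl samples, and the siKMT9α samples had 150.5, 153 and 179.8 CPM, a log2 fold change of 0.31 (SE 0.06, adjusted p = 0.000108, edgeR quasi-likelihood test over all transcripts). The ratio of LAMP2A to LAMP2B counts was 0.697, 0.732 and 0.708 in siControl and 1.02, 0.984 and 1.05 in siKMT9α, without overlap (two-sided exact permutation p = 0.1, the smallest that 3 samples against 3 can give). LAMP2C (NM_001122606), the third form, had a log2 fold change of 0.26, but it ends at the same base as LAMP2A, and the transcripts share their first exons, so the counts are not independent. LAMP2B has an end exon of its own, at chrX:119570349-119573148, whose 3′ UTR holds the 2 seed sites printed above, while the 3′ UTR of LAMP2A in the matching GENCODE transcript holds 1. The part of the sites in the difference was not tested.

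**Figure D4:**
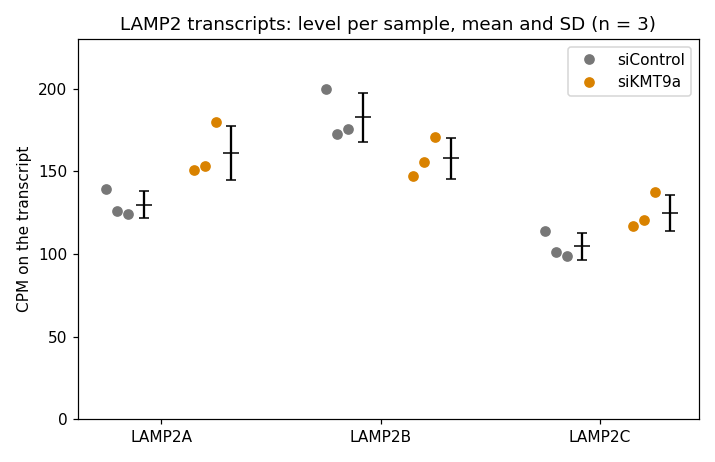
CPM of the 3 LAMP2 transcripts in each sample (points), with the mean and SD of n = 3 per group in black. LAMP2A and LAMP2C are higher in all siKMT9α samples, LAMP2B is lower in all of them.

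Among the lysosomal enzymes and their cofactors, 6 of the 10 tested fell (60%), 2 rose (20%) and 2 were not called, with a median of -0.15. Over all genes tested, 38.5% fell and 37.1% rose. CTSL was at 1478, 1278 and 1309.8 CPM in siControl replicates 1, 2 and 3 and at 782, 786 and 849 CPM in the siKMT9α replicates. CTSL, the cysteine protease cathepsin L, separated the groups widely and fell by 0.75 on the log2 scale (SE 0.06, adjusted p = 5.59e-10, edgeR quasi-likelihood test). HEXA, the α subunit of the hexosaminidase that degrades GM2 ganglioside, went from 366 ± 25.6 to 227 ± 8.09 CPM (-0.69). CTSA, the protective protein of the lysosomal sialidase and galactosidase, went from 314 ± 11.6 to 216 ± 11.1 CPM (-0.54), and its partner NEU1, the sialidase, had a log2 fold change of -0.16, or -0.11 with GC and length offsets. CTSA overlaps PLTP and NEURL2, and HEXA overlaps its antisense gene HEXA-AS1, in each case with far fewer counts.

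CTSD was at 1076, 1051 and 1040.2 CPM in siControl replicates 1, 2 and 3 and at 935, 889 and 927 CPM in the siKMT9α replicates. CTSD, the aspartic protease cathepsin D, was lower without overlap, at a log2 fold change of -0.20 (SE 0.05, adjusted p = 0.00063), which was -0.03 and not called with GC and length offsets. CTSB was at 1533, 1358 and 1419.5 CPM in siControl replicates 1, 2 and 3 and at 1612, 1549 and 1704 CPM in the siKMT9α replicates. CTSB, the cysteine protease cathepsin B, was in turn higher in every siKMT9α sample, at 0.17 (SE 0.05, adjusted p = 0.00743). Its call was lost with library size alone (0.07) and with GC and length offsets (0.04). GAA was at 48.5, 46.6 and 50.5 CPM in siControl replicates 1, 2 and 3 and at 62.9, 59.6 and 62.7 CPM in the siKMT9α replicates. GAA is the acid α-glucosidase that degrades glycogen. It rose most on the log2 scale among the enzymes and cofactors of the list, at 0.34 (SE 0.06, adjusted p = 1.34e-05 by edgeR). GRN, the progranulin gene, had -0.13 with overlapping groups, and it was not called with DESeq2 (adjusted p = 0.0695) and turned to 0.02 with the offsets. The call of GRN was also lost without siControl replicate 1 (-0.06) or 3 (-0.12) and without siKMT9α replicate 1 (-0.13) or 2 (-0.11). PSAP, the precursor of the saposins that activate sphingolipid enzymes, and CTSZ were not called, with -0.05 and 0.05, but CTSZ was called higher with the offsets (0.24).

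Per length of transcript the list was led by SQSTM1 and PSAP, at 2131 and 1934 CPM per kb in siControl, followed by CTSL (798), CTSD (501), CTSB (366) and GABARAP (363). With siKMT9α the order changed. PSAP (1874) stood above SQSTM1 (1216), and CTSL (474), CTSD (435) and CTSB (414) came close together. At the low end were TFEB at 1.46 and ULK2 at 1.77 CPM per kb in siControl. Summed over the list, the TMM-scaled level was 20386 to 21292 CPM in the siControl samples and 16102 to 16629 CPM in the siKMT9α samples.

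Further genes of the same pathways, in 7 lists with 120 genes tested, were lower in 52 cases (43.3%), higher in 42 (35%) and not called in 26, with a median log2 fold change of -0.06. These shares are near the 38.5% lower and 37.1% higher of all genes tested. In the list of further autophagosome genes 10 of 22 fell and 5 rose (median -0.09). ATG4A, a protease for ATG8 proteins, had a log2 fold change of -1.61 and TMEM41B, a scramblase, of -1.08, whereas WDR45B, a WIPI protein, had 0.88, the SNARE SNAP29 had 0.76 and RUBCN, an inhibitor of the class III kinase complex, had 0.74. Of 12 further selective receptors and their partners tested, 6 fell and 3 rose (median -0.13). FAM134B, a receptor for the endoplasmic reticulum, had -1.25, SEC62, another one, -0.92 and BNIP3, a receptor for mitochondria, -0.54, against 0.51 for its paralog BNIP3L, 0.63 for WDFY3 and 0.36 for the kinase TBK1, which phosphorylates OPTN and SQSTM1.

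Of 16 subunits of the V-ATPase, the pump that acidifies the lysosome, 7 fell (43.8%) and 5 rose (31.3%), again near the shares over all genes (median -0.08), with ATP6V1E1 at -1.30, ATP6V0D1 at -0.93 and ATP6V1G1 at -0.70, and with ATP6AP2 at 0.70, ATP6V0A1 at 0.65 and ATP6V0A2 at 0.53. The regulators of the TFEB family include the Ragulator and Rag proteins that hold TFEB at the lysosome. Of 14 tested, 9 fell (64.3%) and 2 rose (14.3%), with a median of -0.22, where 38.5% and 37.1% of all genes tested did. RRAGD had -0.68, LAMTOR1 -0.67 and LAMTOR5 -0.63, while the folliculin partners FNIP1 and FNIP2 had 0.53 and 0.88.

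Of 32 other lysosomal hydrolases 16 rose (50%) and 11 fell (34.4%), with a median log2 fold change of 0.15. Over all genes tested 37.1% were called higher and 38.5% lower. ASAH1, the acid ceramidase, went from 609.9 ± 61.6 to 122.1 ± 9.74 CPM (± SD, n = 3 each) and had a log2 fold change of -2.32, and the cysteine protease CTSH had -1.81. SGSH, a heparan sulfate sulfamidase, rose by 1.53 on the log2 scale, CTSK by 1.47 and MANBA, the β-mannosidase, by 1.16. Sorting by mannose 6-phosphate, the tag that brings hydrolases to the lysosome, had 7 of 10 genes higher (70%) and 3 lower (30%, median 0.23). GNPTAB, which encodes the α and β subunits of the enzyme that makes the tag, went from 21.2 ± 2.14 to 62.3 ± 1.05 CPM (± SD, n = 3 each) and had a log2 fold change of 1.55, SORT1 had 0.81 and AP1G1 had 0.53. The adaptors GGA2 (-1.09) and GGA1 (-0.34) and NAGPA (-0.46), which uncovers the tag, fell. With GC and length offsets several increases were smaller, to 0.16 for WDFY3, 0.43 for RUBCN, 0.24 for ATP6V0A2, 0.47 for SORT1, 0.26 for AP1G1 and 0.32 for FNIP1, and NAGPA was at -0.29. TMEM41B was at -0.70 on its transcript with the second-largest count. Among further membrane proteins, 6 of 14 fell (42.9%) and 4 rose (28.6%), with a median of -0.04. SCARB2, the LIMP-2 protein, was at -1.31, CLN3 at -1.13 and the cystine exporter CTNS at -0.91, and LAPTM4B was at 0.58. The call of the channel TPCN1 (0.21) was lost with library size alone (0.11), with GC and length offsets (0.05) and without siKMT9α replicate 3 (0.12).

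**Figure D5:**
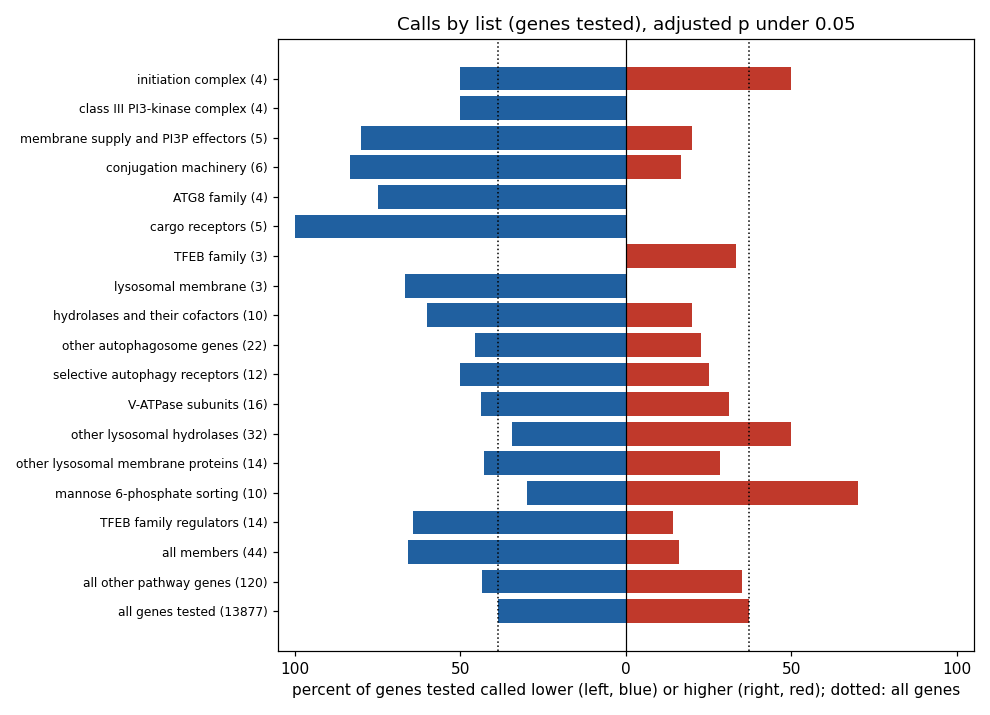
Percent of the genes tested called lower (left) or higher (right) at an adjusted p under 0.05, for the steps, the other lists and all genes, with the number tested in brackets and dotted lines at the 38.5% and 37.1% of all genes. The cargo receptors reach 100% lower, while mannose 6-phosphate sorting has 70% higher.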

How the data were processed

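The labels give 6 RNA-Seq samples of A549 cells, 3 per group. According to the methods and the submitters' processing notes, the authors aligned reads to hg19 with STAR and counted them on RefSeq transcripts with HOMER. The deposited values are expected counts per transcript and sample, which the authors did not normalize, and all are multiples of 0.5. The authors also deposited a fold change between siControl and siKMT9α with its p-value, raw and adjusted, from their own edgeR comparison. These columns were not used. HOMER's counting options and the use of strand are not given in the sources used here.

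Rows without a symbol and counts (1182 of 38767) were left out, 1 transcript per symbol was kept (the largest summed count), and its counts were rounded to whole numbers. They were fitted with edgeR 4.0.16 in R 4.3.3, with filterByExpr, TMM factors (0.96 to 1.04) and a two-sided quasi-likelihood F test, adjusted by Benjamini-Hochberg over 13877 genes. Standard errors are the log2 fold change divided by the root of F. The biological coefficient of variation was 4.47%. The fit was also run on simulated counts in which few genes changed. These differ from the many small changes here, so that run does not check the scaling or the small changes. Replicates of a group differed by more than sampling noise (chi-square of 1.35 to 5.19 per gene). Transcripts were fitted in the same way in 1 further table. The alternatives were DESeq2 1.42.0, RLE factors, library size alone, a filter of 10 counts in every sample or none, the second-largest transcript, GC and length offsets, a replicate block, and leaving out 1 sample at a time.

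The 45 genes and all lists were chosen with earlier results of these data known. Values in every sample are given for the 5 largest positive and 5 largest negative called changes, TFEB, TFE3, MITF, SQSTM1, MAP1LC3B, LAMP1, LAMP2, CTSD and CTSB. From each other list up to 3 genes per direction are named, those with the largest change among genes called, without overlap and with a mean of at least 1 CPM. Not every gene that qualified is reported here. For 93.1% of tested genes the GC content was known, from GENCODE transcripts of GRCh37, which also gave the 3′ UTRs.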

Additional observations from a re-analysis of the deposited data

How the results depend on the processing

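Over 15 alternative settings, 24 of the 44 genes tested kept their direction and their side of the threshold in all, and 583 of 660 pairs of gene and setting did. Genes called lower numbered 24 to 36 against 29, and genes called higher 6 to 8 against 7, except for 3 with library size alone, where the median of the list was -0.31. Past the study's threshold were 9 genes, against 14 with GC and length offsets, 15 with these offsets and the replicate block, and 5 without siKMT9α replicate 2. With each sample left out in turn this count ran from 5 to 11 and the median of the list from -0.21 to -0.18, the latter without siControl replicate 1. Over all genes tested, 3357 passed that threshold, 2326 without siKMT9α replicate 2 and 6070 without the filter on low counts. With the replicate block 6 genes of the list were higher, 27 lower and 7 past the study's threshold, and the calls of TFE3 (adjusted p = 0.0538), WIPI1 (0.0524) and GRN (0.0508) were lost. Same-numbered samples did not deviate together (correlations of -0.12, 0.04 and -0.11), only 1 of the 6 samples correlated best with its own number, and the labels do not say that numbers pair samples. Under GC and length offsets, without and with the replicate block, ULK2 reversed to -0.0396 and -0.0412, GABARAPL2 to 0.1206 and 0.1193, LAMP1 to 0.0374 and 0.0358 and GRN to 0.0188 and 0.0230. GABARAPL2 was at 0.0016 with RLE factors and with DESeq2 and at 0.0012 without the filter, CTSZ at -0.0602 with library size alone, and LAMP2 at 0.31 on its transcript with the second-largest count, a different isoform. With each sample left out, GABARAPL2 ran from -0.0224 to 0.0114, LAMP1 from -0.0521 to 0.0185, MITF from -0.0742 to 0.0156 and PSAP from -0.0824 to 0.0214, and none of the 4 was called under TMM without offsets when all 6 samples were used (adjusted p of 0.852, 0.812, 0.488 and 0.47 in that order by edgeR). The causes of these changes were not tested, other than that leaving out a sample leaves fewer samples. Apart from ULK2, the genes of the list that lost a call under another scaling or under the offsets had log2 fold changes of at most 0.21 in size. TFEB, at 2.57 to 3.74 CPM, was called lower with library size alone (-0.4203, adjusted p = 0.0242 by edgeR).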
